A study of Drosophila melanogaster with 18 samples.

Results

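MsrA (also called Eip71CD), Cth (Eip55E), Cyp18a1 and Eip63E are 4 enzyme genes known as ecdysone-inducible in Drosophila melanogaster. They were followed through the onset of metamorphosis as the probe sets annotated to exactly 1 of these symbols. That gave 4 probe sets, 1 per gene, of 13966 probe sets with 10843 different gene symbols on the Affymetrix array. The controls were w1118 animals. The EcRi line, hs-EcRi-11, bears a heat-shock transgene whose double-stranded RNA targets the region shared by all EcR transcripts, and its larvae were heated to 37°C for 1 h, 24 h and again 18 h before pupariation. For the controls a heating step is not stated. Both strains were sampled as larvae of the third instar at -4 h, at pupariation (0 h) and as prepupae at 4 h, with 3 arrays per group and 10 whole animals pooled for each RNA. EcRi animals stop as elongated prepupae, so the strains also differed in form after pupariation, and because RNA came from whole animals, fewer cells of a type and less RNA per cell cannot be told apart.

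Pulses of the steroid 20-hydroxyecdysone (20E) drive moulting and metamorphosis by binding EcR, which acts with its partner Usp on target promoters. The products of the 4 genes do unrelated chemistry. MsrA reduces oxidised methionine in proteins, Cth is the cystathionine gamma-lyase that makes cysteine in the last step of transsulphuration, Cyp18a1 is a cytochrome P450 that oxidises 20E and so removes the hormone, and Eip63E is a cyclin-dependent kinase whose partner is Cyclin Y.

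Values are dChip intensities on a linear scale. Of the 18 arrays, control -4 h replicate 1 and EcRi 0 h replicate 1 stood apart, with correlations to their nearest array of 0.939 and 0.933. The 3 EcRi 4 h arrays had 0.974, 0.976 and 0.974, and the others had 0.992 to 0.995. No difference between strains in the EcR probe set itself passed the limits given below, with log2 differences of 0.08 at -4 h and 0.09 at 4 h. The paper, citing earlier work, describes EcR protein as strongly lowered in EcRi animals, and the arrays do not measure protein. Markers of salivary gland, fat body, midgut, muscle, neurons and haemocytes were present, all but 1 of the 35 measured lying above the floor described below on at least 1 array. Of 13 listed heat-shock genes only 3 were measured. Hsp26 and Hsp27 were lower in EcRi animals at each time, and Hsp68 was lower at 4 h (log2 -1.7).

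MsrA and Eip63E had their highest mean intensity in control animals at pupariation, and on all 3 EcRi arrays of that time both lay below every control array; strains did not overlap at that time for 34.4% of all probe sets. Cyp18a1 was dim before pupariation and bright in control prepupae at 4 h. Cth lay between 302.0 and 626.0 on all 18 arrays, with the strains overlapping at each time. The lowest group mean was that of EcRi prepupae at 4 h for MsrA, Cth and Eip63E, and that of EcRi larvae at -4 h for Cyp18a1.

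**Figure D1:**
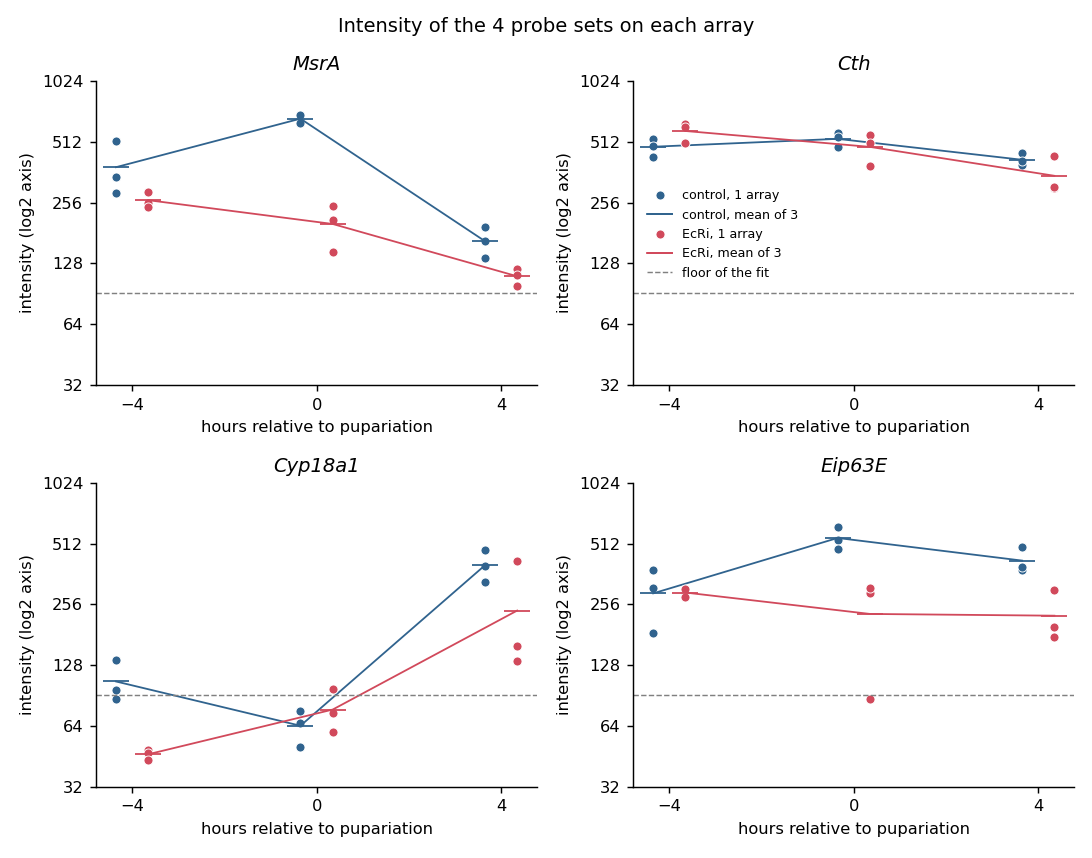
Intensity of each probe set (log2 axis) against hours relative to pupariation; each point is 1 array, lines join the means of 3 arrays, blue is control, red is EcRi and the dashed line is the floor of 91.6. At 0 h the control arrays of MsrA (637.7 to 694.0) and Eip63E (483.4 to 621.0) all lie above the EcRi arrays, and Cyp18a1 reaches 329.2 to 473.6 in control animals at 4 h.

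MsrA encodes the reductase for the S form of methionine sulphoxide. In control animals its intensity was 287.2, 343.4 and 519.8 on replicates 1, 2 and 3 at -4 h, 668.9, 694.0 and 637.7 at 0 h, then 194.7, 164.5 and 136.2 at 4 h. The 3 arrays at pupariation were thus above every other array of the series, and the 3 prepupal arrays were below all earlier control arrays. In EcRi animals it was 255.9, 289.6 and 244.5 at -4 h, 146.4, 245.7 and 210.2 at 0 h, then 99.5, 119.7 and 112.6 at 4 h. There was no peak at pupariation in these animals, and the prepupal arrays were again the lowest. In the order of mean levels, control 0 h (666.8 ± 28.2, SD, n = 3) stood apart from control -4 h (383.5 ± 121). EcRi -4 h (263.3 ± 23.4), EcRi 0 h (200.7 ± 50.3) and control 4 h (165.1 ± 29.3) followed, each overlapping its neighbour, and EcRi 4 h (110.6 ± 10.3) stood apart at the bottom.

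Differences were tested on log2 of the intensity after values under the floor (91.6, the 20th percentile of all values) were raised to it. Adjusted p-values are from limma with Benjamini-Hochberg adjustment over all 13966 probe sets, and a difference was called at an adjusted p under 0.10 and at least 1.5-fold. MsrA was lower in EcRi animals at 0 h by 3.4-fold (log2 -1.76 ± 0.22, SE, adjusted p = 0.00015). This call held under all 34 other settings and left-out arrays, with adjusted p from 2.9e-06 to 0.077. At -4 h the strains overlapped and the log2 difference of -0.50 ± 0.22 was not called (adjusted p = 0.35). It passed both limits without the pair of arrays that stood apart (-0.69, adjusted p = 0.052), and over the alternatives adjusted p lay between 0.014 and 0.66. At 4 h every EcRi array was below every control array, but the fold of 1.48 (log2 -0.57 ± 0.22, adjusted p = 0.095) fell just short of the fold limit. Leaving out control 4 h replicate 3 (1.62-fold, adjusted p = 0.08) or EcRi 4 h replicate 2 (1.54-fold, adjusted p = 0.094) brought it past both limits, and over all alternatives adjusted p was 0.018 to 1.0.

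Over time, MsrA rose in control animals from -4 to 0 h by 1.79-fold (log2 0.84 ± 0.22, adjusted p = 0.053). It then fell by 4.08-fold from 0 to 4 h (log2 -2.03 ± 0.22, adjusted p = 4.2e-05), a call that held under all 35 alternatives. The rise was called in 26 of 34 alternatives (adjusted p 0.0063 to 0.23). It lost its call without control -4 h replicate 1 (adjusted p = 0.23) or 2 (0.14), or without control 0 h replicate 1 (0.18), 2 (0.17) or 3 (0.11). The call was also lost in a fit to the compared arrays only (adjusted p = 0.21), at an adjusted p under 0.05 and at a 2-fold limit. In EcRi animals the log2 difference from -4 to 0 h was -0.42 ± 0.22 and was not called (adjusted p = 0.65). From 0 to 4 h MsrA fell in EcRi animals by 1.78-fold (log2 -0.83 ± 0.22, adjusted p = 0.089). That call was kept in 13 of 34 alternatives (adjusted p 0.0092 to 1.0). Of the single arrays left out, 4 left it in place (control -4 h replicates 1 and 3, EcRi 0 h replicate 1 and EcRi 4 h replicate 2), and without any 1 of the other 14 adjusted p was 0.10 to 0.28. It was also lost with the compared arrays only (adjusted p = 0.72), with significance analysis of microarrays, SAM (1.0), and with the floor at the 40th percentile, 178.5, where the value was -0.23 (0.74).

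The change of MsrA from -4 to 0 h was lower in EcRi than in control animals by log2 -1.26 ± 0.31 (interaction of strain and time, adjusted p = 0.085). This call depended on single arrays. Leaving out any 1 of 13 arrays, all but control -4 h replicate 3, control 4 h replicates 1 and 3, EcRi 0 h replicate 2 and EcRi 4 h replicate 2, gave an adjusted p of 0.10 to 0.21, and without the pair of arrays that stood apart the value was -0.87 with an adjusted p of 0.20 (0.016 to 0.21 over the alternatives). From 0 to 4 h the fall was smaller in EcRi animals, with a difference of 1.2 ± 0.31 (adjusted p = 0.070). That call was kept in 24 of 33 alternatives (adjusted p 0.0017 to 0.18). It was lost, at 0.10 to 0.18, without any 1 of the control 0 h replicates, control 4 h replicates 2 and 3, EcRi -4 h replicate 1 or EcRi 4 h replicates 2 and 3. Both interactions share the arrays at 0 h.

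Cth encodes cystathionine gamma-lyase. Control intensities were 432.3, 531.6 and 488.6 at -4 h, 564.8, 542.3 and 482.2 at 0 h, then 450.4, 391.2 and 410.3 at 4 h. EcRi intensities were 626.0, 506.6 and 605.7 at -4 h, 388.8, 554.9 and 506.6 at 0 h, then 302.0, 434.5 and 306.6 at 4 h. Strains overlapped at all 3 times, and in the order of mean levels, from EcRi -4 h (579.4 ± 63.9) down to EcRi 4 h (347.7 ± 75.2), each group overlapped the next.

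No difference of Cth was called. The EcRi effects were log2 0.26 ± 0.16 at -4 h (95% interval -0.08 to 0.60, adjusted p = 0.56), -0.14 ± 0.16 at 0 h (-0.49 to 0.20, adjusted p = 0.58) and -0.28 ± 0.16 at 4 h (-0.62 to 0.06, adjusted p = 0.26). The interval at 0 h lies within the 1.5-fold limit, 0.58 on this scale, whereas those at -4 and 4 h reach just past it. In control animals the arrays at 4 h were all below those at 0 h, with a log2 difference of -0.34 ± 0.16 (adjusted p = 0.41). The corresponding EcRi value was -0.48 ± 0.16 (adjusted p = 0.19). It passed both limits without EcRi 0 h replicate 1 (-0.63, adjusted p = 0.050) and without EcRi 4 h replicate 2 (-0.65, adjusted p = 0.033), within a range of 0.02 to 1.0 over the alternatives.

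Cyp18a1 encodes the 26-hydroxylase that inactivates 20E, and its probe set was at or under the floor on 9 of 18 arrays. In control animals it read 87.2, 135.7 and 96.0 at -4 h, 65.9, 76.0 and 50.6 at 0 h, then 473.6, 395.1 and 329.2 at 4 h. In EcRi animals it read 48.8, 46.8 and 43.5 at -4 h, 59.9, 97.5 and 74.1 at 0 h, then 134.2, 421.5 and 159.8 at 4 h. Every 4 h array was above every 0 h array of its strain. EcRi 4 h replicate 2 lay within the control range of that time, and the other 2 EcRi arrays lay below that range. Replicate 2 was also the highest of this group for MsrA (119.7), Cth (434.5) and Eip63E (300.6).

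The level of Cyp18a1 rose from 0 to 4 h in control animals by 4.31-fold (log2 2.11 ± 0.32, 95% interval 1.42 to 2.8, limma adjusted p = 0.00092). The floor lowers this estimate, because all 3 arrays at 0 h were at or under it. The rise was called under all 34 alternatives, with adjusted p from 5.3e-08 to 0.075, and was 6.24-fold with the floor at the 5th percentile (33.8) and 2.21-fold with it at the 40th (178.5). In EcRi animals the log2 difference from 0 to 4 h was 1.16 ± 0.32 and missed the threshold (adjusted p = 0.11, and 0.00052 to 1.0 over the alternatives). The floor lowers this estimate too, as 2 of 3 EcRi arrays at 0 h were at or under it. The EcRi rise passed in 10 of 33 alternatives. Among them were the floor at the 5th percentile (1.46, adjusted p = 0.059), the pseudocount (0.066), quantile normalization (0.086), aligned medians (0.077) and array weights (0.044). It also passed without EcRi 4 h replicate 1 (1.47, adjusted p = 0.051) or replicate 2 (0.65, adjusted p = 0.052). The difference between the strains in this change was -0.95 ± 0.45 and was not called (adjusted p = 0.50), except without EcRi 4 h replicate 2 (-1.46, adjusted p = 0.0025) and with array weights (-1.19, adjusted p = 0.022), in a range of 0.0025 to 1.0.

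Between strains Cyp18a1 was called at 4 h, where it was lower in EcRi animals by 1.9-fold (238.5 ± 159 against 399.3 ± 72.3, SD, n = 3; log2 -0.92 ± 0.32, limma adjusted p = 0.066). This difference rested on single arrays. It was lost without control 4 h replicate 1 (adjusted p = 0.22) or 2 (0.14), and also without EcRi 4 h replicate 1 (-0.61, 0.28) or 3 (-0.73, 0.22). It was lost as well in a fit to the compared arrays only (adjusted p = 0.27) and under SAM (0.11). Without EcRi 4 h replicate 2 it was -1.43 with an adjusted p of 0.00011. Where EcRi 4 h replicates 1 and 3 were left out along with the pair of arrays that stood apart, replicate 2 alone stood for the group and the value was 0.09 (adjusted p = 0.92), in a range of 0.00011 to 0.92 over 33 alternatives. At 0 h the difference was 0.03 ± 0.32 (adjusted p = 1.0), with 3 control and 2 EcRi arrays at the floor.

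At -4 h all 3 EcRi arrays of Cyp18a1 were below all 3 control arrays as measured (46.3 ± 2.63 against 106.3 ± 25.8, SD, n = 3). All 3 EcRi arrays were under the floor, so the fitted log2 difference of -0.21 ± 0.32 (limma adjusted p = 0.86) understates it. With the floor at the 5th percentile the difference was -1.17 ± 0.35 and was called (adjusted p = 0.099, against 0.099 to 1.0 over the alternatives).

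Eip63E encodes a kinase of the PFTAIRE type. In control animals its intensity was 184.3, 307.8 and 378.5 at -4 h, 621.0, 532.4 and 483.4 at 0 h, then 493.9, 380.8 and 389.9 at 4 h. The low array at -4 h was replicate 1, which also stood apart over all probe sets. In EcRi animals it was 294.3, 305.7 and 278.6 at -4 h, 87.2, 291.9 and 309.4 at 0 h, then 176.6, 300.6 and 197.7 at 4 h. EcRi 0 h replicate 1, the other array that stood apart, was the lowest of all 18 and the only one under the floor. Control 0 h (545.6 ± 69.7, SD, n = 3) and control 4 h (421.5 ± 62.9) overlapped and led the order, and control 4 h stood apart from EcRi -4 h (292.9 ± 13.6). Below these came control -4 h (290.2 ± 98.3), EcRi 0 h (229.5 ± 124) and EcRi 4 h (225.0 ± 66.4), each overlapping its neighbour.

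At pupariation Eip63E was lower in EcRi animals by 2.68-fold (log2 -1.42 ± 0.40, adjusted p = 0.044). Without EcRi 0 h replicate 1 the difference was 1.81-fold (log2 -0.85, adjusted p = 0.094), and without both arrays that stood apart it was -0.85 with an adjusted p of 0.021. The call was kept in 30 of 34 alternatives (0.00013 to 0.34). It was lost without control 0 h replicate 1 (adjusted p = 0.15) or 2 (0.11), in a fit to the compared arrays only (0.34) and under SAM (0.11). At 4 h every EcRi array was below every control array, and the log2 difference was -0.93 ± 0.40 (adjusted p = 0.13). This value passed both limits in 9 of 34 alternatives (0.0031 to 0.36), among them the fits without EcRi 0 h replicate 1 (adjusted p = 0.016), without EcRi 4 h replicate 2 (-1.16, 0.080) and without both arrays that stood apart (0.0031). It also passed under SAM (adjusted p = 0.057) and in the fit to the compared arrays only (0.08), the settings that lost the call at 0 h. At -4 h the difference was 0.07 ± 0.40 (adjusted p = 1.0), with a 95% interval from -0.79 to 0.94.

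No change of Eip63E over time was called. In control animals the arrays at 0 h were all above those at -4 h (log2 0.97 ± 0.40, adjusted p = 0.27). Without EcRi 0 h replicate 1, which entered only through the common variance, adjusted p was 0.038, in a range of 0.0032 to 0.84. The value from 0 to 4 h was -0.37 ± 0.40 (adjusted p = 1.0). In EcRi animals the values were -0.53 ± 0.40 and 0.11 ± 0.40 (adjusted p = 0.65 and 1.0). The strain-by-time interaction from -4 to 0 h was -1.50 ± 0.57 and was not called (adjusted p = 0.33), nor was that from 0 to 4 h (0.49 ± 0.57, adjusted p = 0.93). RefSeq lists 14 transcripts for Eip63E, 6 for MsrA and 2 each for Cth and Cyp18a1, and which of them a probe set reads was not determined here.

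**Figure D2:**
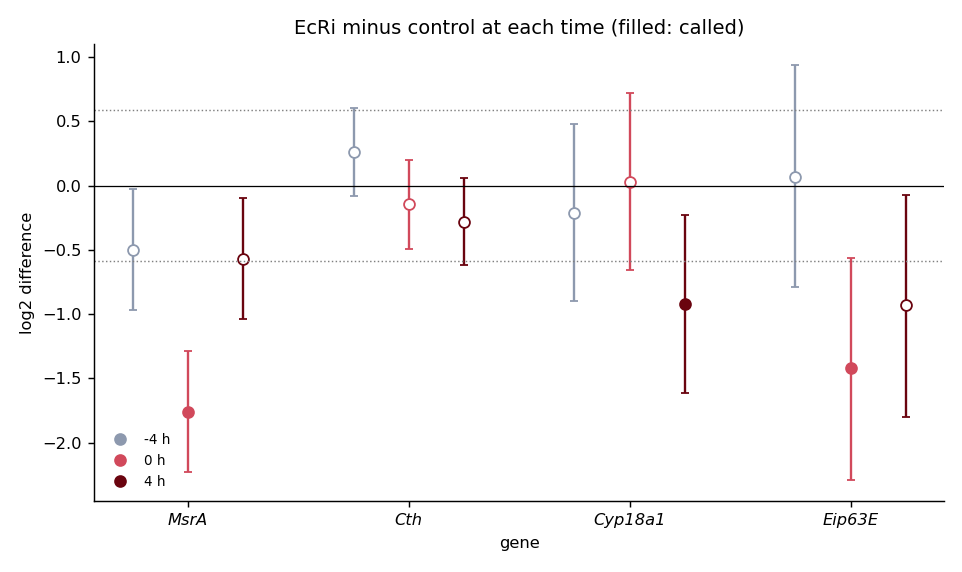
Log2 difference between EcRi and control animals for each gene at -4, 0 and 4 h, with 95% confidence intervals from the fit to 18 arrays; filled points were called and dotted lines mark 1.5-fold. MsrA (-1.76) and Eip63E (-1.42) at 0 h and Cyp18a1 (-0.92) at 4 h are filled, and Cth stays within 0.28 of 0 at each time.

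Set side by side, none of the 4 genes was called between strains at -4 h, where 2.94% of all probe sets were, and 1 of 4, Cyp18a1, had strains that did not overlap (30.3% of probe sets). At 0 h 2 of 4, MsrA and Eip63E, were called lower, against 4.68% of all probe sets called lower and 7.69% in either direction. These were also the only ones of the 4 whose strains did not overlap at 0 h, against 34.4% of probe sets. At 4 h 1 of 4, Cyp18a1, was called lower (9.08% of all probe sets, and 13.4% in either direction), while MsrA and Eip63E had strains that did not overlap (47.3% of all) without being called. No member was called higher in EcRi animals at any time.

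Several sums of tissue markers also differed between strains, in both directions. At 0 h the summed intensity of 6 salivary gland markers was 20781 to 29231 on control arrays and 57491 to 59929 on EcRi arrays. The sum of 10 midgut markers was 33346 to 39079 and 66675 to 74933, and that of 6 haemocyte markers 2503 to 2640 and 6690 to 8443. Lower in EcRi animals without overlap were the sums of 3 fat body markers (43795 to 44770 and 38757 to 42059) and 5 neuron markers (1178 to 1223 and 959 to 1147). No single fat body or neuron marker was called at 0 h, and 34.4% of all probe sets did not overlap there. All 6 salivary gland and 7 of 10 midgut markers were called higher in EcRi animals at 0 h, against 421 of all 13966 probe sets. Only 3 of 6 haemocyte markers were called higher, PPO1, PPO2 and Pxn, while Hml (log2 0.37), Ppn (0.45) and NimC1 (-0.07) were not called. At 4 h the salivary gland sum was 2787 to 3630 in control and 56385 to 59730 in EcRi animals, and the midgut sum 7989 to 9897 and 50184 to 52923, with 6 of 6 and 9 of 10 markers called higher. Other sums that did not overlap between strains at 4 h were those of haemocyte (2117 to 2255 in control, 4215 to 6030 in EcRi animals), muscle (1096 to 1223 and 1630 to 1869) and fat body markers (44012 to 45733 and 35342 to 39565). Of single markers in these lists, only 2 of 6 haemocyte and 2 of 5 muscle markers were called higher, and 1 of 3 fat body markers lower. Over all 13966 probe sets at 4 h, 605 were called higher and 1268 lower, and 47.3% had strains that did not overlap. The haemocyte sum was also apart at -4 h (2799 to 4048 and 5738 to 7610), with 2 of 6 markers called higher (248 of all 13966 probe sets). Lower in EcRi animals without overlap at -4 h were the salivary gland (60681 to 64010 and 53922 to 58236) and neuron sums (1165 to 1240 and 1076 to 1140). No salivary gland or neuron marker was called at -4 h, and 30.3% of all probe sets did not overlap there. Within control animals, where MsrA and Cyp18a1 were called over time, all 6 salivary gland and 8 of 10 midgut markers were called lower in each step. Of all 13966 probe sets, 233 were called lower from -4 to 0 h and 371 from 0 to 4 h. No marker of the salivary gland, midgut, haemocyte, fat body and muscle lists was at the floor on all arrays, and 1 of 5 neuron markers was. The part of tissue composition, and of the lower heat-shock transcripts, in the differences and changes of MsrA, Cyp18a1 and Eip63E was not tested.

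**Figure D3:**
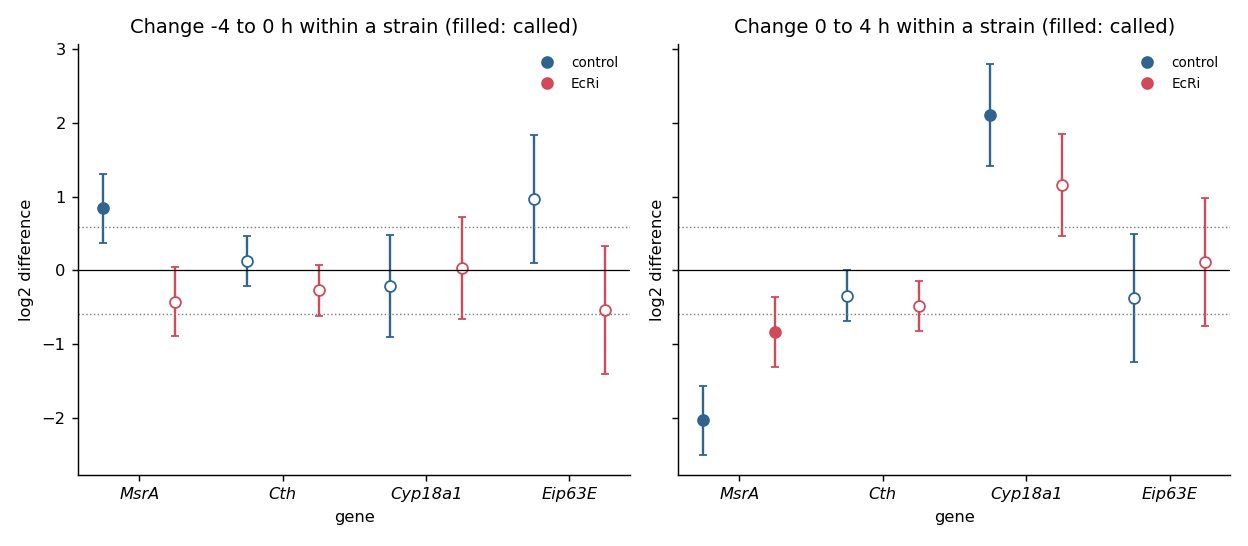
Log2 change from -4 to 0 h (left) and from 0 to 4 h (right) within control (blue) and EcRi (red) animals, with 95% confidence intervals from the fit to 18 arrays; filled points were called and dotted lines mark 1.5-fold. MsrA rises and then falls in control animals (0.84 and -2.03), and Cyp18a1 rises by 2.11 from 0 to 4 h.

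Within control animals 1 of 4 genes, MsrA, was called from -4 to 0 h (higher, against 1.44% of probe sets called higher and 3.11% in all). From 0 to 4 h 2 of 4 were called, MsrA lower and Cyp18a1 higher (4.6% in all, 2.66% lower and 1.95% higher). Groups did not overlap for 3 of 4 from -4 to 0 h (all but Cth, against 35.8% of probe sets) and for 3 of 4 from 0 to 4 h (all but Eip63E, against 33.7%). Within EcRi animals none was called from -4 to 0 h. No probe set of the whole table was called there (0.0%) by limma, 604 had an unadjusted p under 0.05, and SAM called 0. From 0 to 4 h 1 of 4, MsrA, was called lower in EcRi animals (0.78% of probe sets lower, 1.47% in all). The EcRi groups did not overlap for Cyp18a1 from -4 to 0 h (9.63% of probe sets) and for MsrA and Cyp18a1 from 0 to 4 h (9.9%). The strain-by-time interaction was called for MsrA alone of the 4 genes, lower from -4 to 0 h (0.558% of probe sets lower, 1.44% in all) and higher from 0 to 4 h (1.53% higher, 2.65% in all). EcRi effects and changes over time use the same control arrays and so are not independent of each other.

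Other genes of each pathway were taken from lists of textbook membership. Beside Cth, 9 other enzymes of methionine metabolism and transsulphuration were measured. AhcyL2, which encodes a relative of S-adenosylhomocysteine hydrolase, was the only one called, lower in EcRi animals at 0 h (log2 -0.93 ± 0.20, adjusted p = 0.010) and falling in control animals from 0 to 4 h (-0.97 ± 0.20, adjusted p = 0.0091), whichever array was left out. The 10 enzymes had a median EcRi effect of 0.23, -0.05 and -0.28 at -4, 0 and 4 h, where that of all probe sets was 0.0. Neither of the 2 measured subunit genes of glutamate-cysteine ligase, Gclc and Gclm, which use the cysteine that Cth makes, was called at any time.

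Of the methionine sulphoxide and thioredoxin system, 9 genes beside MsrA were measured. SelR, which reduces the R form of methionine sulphoxide, had EcRi effects of 0.22, 0.23 and 0.10 at the 3 times and was not called. TrxT, a testis thioredoxin, was called lower at 4 h (log2 -1.10 ± 0.35, adjusted p = 0.048). Its call was lost without any 1 of control 4 h replicates 1 and 3 and EcRi 4 h replicates 1 and 3, with adjusted p up to 0.17. The list median was -0.31, -0.21 and -0.24 at -4, 0 and 4 h, and at 0 h MsrA was its only called member.

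Beside Cyp18a1, 6 genes of ecdysteroid synthesis and turnover were measured, among them dib, sad and shd, which encode hydroxylases of the synthetic pathway. None was called in any comparison, and spo was at the floor on all 18 arrays. The EcRi effects at 4 h were 0.39 for dib, 0.25 for sad and -0.37 for shd. The median of all 7 was -0.08, 0.03 and 0.09.

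Of cyclin-dependent kinases and their partners, 17 genes were measured beside Eip63E. CycY, the partner of Eip63E, had EcRi effects of -0.11, 0.20 and -0.27 and was not called. No other gene of this list was called at -4 or 0 h. CycK, the cyclin of Cdk12, was called lower at 4 h (log2 -0.71 ± 0.25, adjusted p = 0.067), but not without any 1 of control 4 h replicates 1 and 2 and EcRi 4 h replicates 1 and 3 (adjusted p up to 0.24). Cdk2, a kinase of the S phase, had a called interaction from 0 to 4 h (0.71 ± 0.18, adjusted p = 0.067), which was lost with any 1 of 7 arrays left out (control 0 h replicates 1 and 3, control 4 h replicates 2 and 3, EcRi 0 h replicate 1, EcRi 4 h replicates 1 and 2; adjusted p up to 0.18). The median of all 18 was 0.03, -0.08 and -0.27 at -4, 0 and 4 h.

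Among 18 measured genes of the ecdysone receptor and other ecdysone-induced genes, 1 was called higher and 1 lower in EcRi animals at -4 h, 1 higher and 4 lower at 0 h, and 7 lower at 4 h. Over all probe sets 2.94% were called at -4 h, 4.68% were called lower at 0 h and 9.08% lower at 4 h. Eip78C, a nuclear receptor gene, was lower at all 3 times (log2 -2.63 ± 0.10, -2.79 ± 0.10 and -0.94 ± 0.10, adjusted p = 1.7e-08, 1.9e-09 and 3.6e-05). MsrA and Eip63E were called at 0 h alone in the fit to 18 arrays, with uncalled log2 differences of -0.57 and -0.93 at 4 h. For Eip63E this depended on the test, as SAM and the compared arrays only called it at 4 h and not at 0 h. Its interaction from 0 to 4 h was not called (0.49 ± 0.57). ImpL1 went the other way, higher in EcRi larvae at -4 h (2.10 ± 0.30) and at pupariation (2.99 ± 0.30). At 4 h, where Cyp18a1 was lower, Hr3 (-1.45 ± 0.32), another nuclear receptor gene, and the imaginal disc genes ImpE2 (-1.46 ± 0.17) and ImpE3 (-1.99 ± 0.30) were lower too. These calls of Eip78C, ImpL1, Hr3, ImpE2 and ImpE3 held whichever array was left out.

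**Figure D4:**
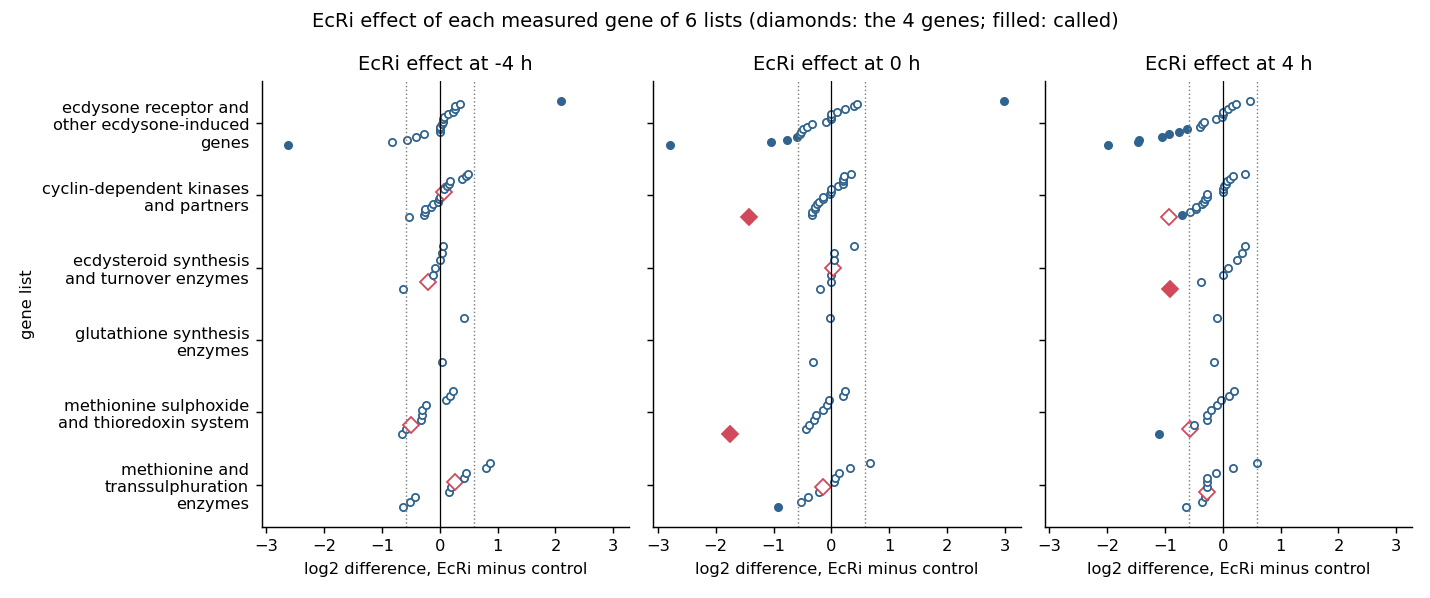
Log2 difference between EcRi and control animals of every measured gene of the pathway lists at -4, 0 and 4 h, 1 row of points per list and sorted within it; red diamonds are the 4 enzyme genes, filled symbols were called and dotted lines mark 1.5-fold. At 0 h MsrA (-1.76) and Eip63E (-1.42) are the lowest of their lists, and at 4 h Cyp18a1 (-0.92) is the lowest of its list.

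Genes with the most similar course were sought among 4119 other probe sets whose group means spanned at least 1.5-fold. The measure was Pearson's r of floored log2 intensity over the 18 arrays, which share strain, stage and array-wide differences, so r is a description. MsrA was nearest to Npc2e (0.965), a gene of the Niemann-Pick type C2 family of lipid-binding proteins, to Sfxn2 (0.962), a sideroflexin gene, and to Pu (0.962), the GTP cyclohydrolase gene of the pteridine pathway. All 3 had their highest mean in control animals at 0 h, at 965.3, 711.1 and 2418.2, and their lowest in EcRi animals at 4 h, at 292.8, 316.2 and 81.1. Without the pair of arrays that stood apart they ranked 4, 2 and 1.

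The genes nearest to Cth were br (0.912), which encodes the Broad transcription factors, pio (0.906), a ZP-domain protein gene of the apical matrix, and Mdh1 (0.899), the cytosolic malate dehydrogenase gene. Their means were highest in EcRi animals at -4 h and lowest in EcRi animals at 4 h, as for Cth (863.3 and 188.3, 1577.1 and 643.5, 3114.8 and 1904.1). Without the pair of arrays that stood apart they ranked 7, 3 and 5. For Cyp18a1 they were tpr (0.983), pip (0.962), a sulphotransferase gene, and ect (0.957), which then ranked 1, 3 and 2. The control mean of these at 4 h was 592.0, 171.1 and 255.0, and that of EcRi animals was 258.0, 105.0 and 225.4. Most of their other group means, as of Cyp18a1, lay under the floor, so these correlations rest largely on the arrays at 4 h.

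Nearest to Eip63E were CG4101 (0.990), CG3566 (0.980) and mats (0.977), the last an adaptor gene of the Hippo growth-control pathway. Without the pair of arrays that stood apart, CG4101 stayed first with r of 0.985, and CG3566 and mats ranked 12 and 24 with 0.966 and 0.960. The mean of mats was 1038.1 in control and 439.5 in EcRi animals at 0 h, and 823.7 and 423.7 at 4 h.

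**Figure D5:**
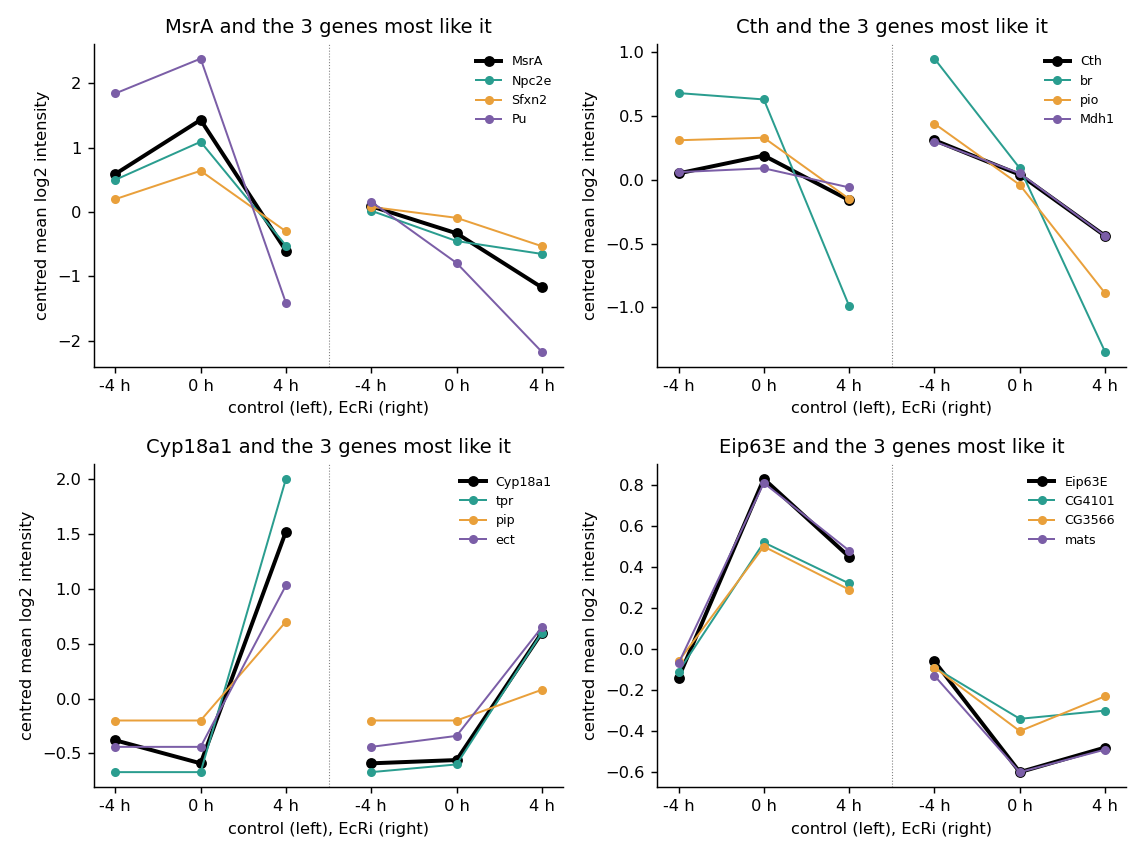
Mean floored log2 intensity of 3 arrays in each group, centred on the gene's mean over the groups, for each enzyme gene (black) and the 3 genes most like it; control groups are on the left and EcRi groups on the right of each panel. MsrA is highest in control animals at 0 h (1.43), Cyp18a1 in control animals at 4 h (1.52) and Eip63E in control animals at 0 h (0.83); Pu and tpr reach higher values than these at the same points as MsrA and Cyp18a1 (2.38 and 2.0).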

How the data were processed

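RNA of whole animals was hybridised to 18 Affymetrix Drosophila Genome Arrays. The authors normalized the scans and computed the deposited intensity values, linear and 1 per probe set, with dChip 1.2; its probe model and background treatment are not stated. Array medians were 221.6 to 247.6. Arrays hold no counts, so their number limits the precision. Of the probe sets, 12442 had 1 symbol, 327 several and 1197 none; 1 shared by Eip63E and another gene was not used as a member.

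Intensities were raised to a floor (20th percentile, 91.6) and log2 was taken. Group means were estimated from the 18 arrays by limma 3.58.1 under R 4.3.3 (12 residual degrees of freedom, prior 0.588), with two-sided p-values adjusted by Benjamini-Hochberg over each contrast. Groups came from the labels. The paper's methods describe 3 independent collections per EcRi time. Folds are on the floored scale and understate those of dim genes; 1285 probe sets were at the floor throughout. The fit was tested on simulated data. All members were named whatever their values, with the 3 most correlated genes of each. From each list, in which the brightest probe set stood for a gene, the called genes with the largest changes could be named, or 2 where none was called; SelR, CycY, dib, sad and shd, as partners or neighbours in the pathway, were named after their values were seen. Members and lists were chosen with earlier results of these data known.

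The alternatives were other floors, a pseudocount of 50, quantile normalization, aligned medians, a robust fit with a variance trend, the compared arrays only, brighter probe sets only, a block for the replicate number, a reimplemented SAM, stricter limits, 1 probe set per gene, each array left out, fits without 2 or 4 arrays (those that stood apart, then also EcRi 4 h replicates 1 and 3), and array weights. Same-numbered arrays deviated together only for the control change from 0 to 4 h (correlations of 0.20 to 0.42), so a block within those arrays was added after seeing the data; it changed no member's call.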

Additional observations from a re-analysis of the deposited data

Results flagged for a closer look

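The course of MsrA passed the threshold in a test of the difference between strains. The change from -4 to 0 h was lower in EcRi than in control animals by log2 -1.26 (limma adjusted p = 0.085), and the change from 0 to 4 h was higher by 1.2 (adjusted p = 0.070). In control animals the mean intensity went from 383.5 to 666.8 to 165.1, and in EcRi animals from 263.3 to 200.7 to 110.6. The first difference was called in 15 of 33 alternatives. Its call was lost with any 1 of 13 arrays left out, without the pair of arrays that stood apart (-0.87, adjusted p = 0.20) and with the replicate number as a block (0.11). The second was called in 24 of 33, and was lost with any 1 of 8 arrays left out. Both differences use the arrays at 0 h and so are not independent of each other. The part of the arrays' overall differences and of tissue composition in them was not tested.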

How the results depend on the processing

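Each count of called genes among the 4 was recomputed under every alternative, and 212 of 305 counts kept their size and 93 moved. Of 1211 single effects, 1104 kept their side of the threshold without a called effect changing sign. Effects that changed sign but were called in neither fit are counted among these 1104. The single sign change of a called effect was Cyp18a1 at 4 h without 4 arrays, 0.09. The cause of a changed count was not tested, apart from stricter limits and left-out probe sets or arrays, which change it by construction.

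For the EcRi effect at -4 h, 0 genes became 1 with the floor at the 5th percentile, without the 2 arrays that stood apart, without 4 arrays and with array weights. At 0 h 2 became 1 with the compared arrays only and with SAM. At 4 h 1 became 2 with the floor at the 40th percentile, the pseudocount, quantile normalization, without 2 arrays and with array weights, and 0 with an adjusted p under 0.05, a 2-fold limit and without 4 arrays. For the control change from -4 to 0 h, 1 became 2 with the 40th percentile, SAM, without 4 arrays and with array weights, and 0 with the compared arrays only and with both stricter limits. From 0 to 4 h 2 became 1 with brighter probe sets only, which leaves out Cyp18a1. For the EcRi change from 0 to 4 h, 1 became 2 with the 5th percentile, quantile normalization, aligned medians, 1 probe set per gene and without 4 arrays, 3 without 2 arrays and with array weights, and 0 with the 40th percentile, the compared arrays only, SAM and both stricter limits. With the replicate number as a block this count was 0, as was that of the interaction from -4 to 0 h (adjusted p = 0.11 for MsrA in both); the block changed no other call, and 10 of 18 arrays deviated most like an array of their own number. That interaction count was also 0 with the compared arrays only, an adjusted p under 0.05, and without 2 or 4 arrays, and 2 with array weights. The interaction count from 0 to 4 h was 0 with an adjusted p under 0.05 and 2 with array weights.

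With each array left out, the counts ranged from 0 to 0 for the EcRi effect at -4 h, 1 to 2 at 0 h and 0 to 3 at 4 h, 0 to 2 and 2 to 2 for the successive control changes, 0 to 0 and 0 to 3 for the EcRi changes, and 0 to 1 for each interaction.

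Over the settings other than left-out arrays, probe sets called in the whole table numbered 221 to 746 for the EcRi effect at -4 h (411 as reported), 426 to 1228 at 0 h (1074) and 885 to 2725 at 4 h (1873). They numbered 196 to 733 (434) and 385 to 912 (643) for the control changes, 0 to 85 (0) and 0 to 1410 (205) for the EcRi changes, and 128 to 563 (201) and 251 to 1490 (370) for the interactions. With 1 array left out they numbered 280 to 599, 684 to 1740 and 1116 to 2607 for the EcRi effects, 270 to 731 and 512 to 781 for the control changes, 0 to 3 and 143 to 459 for the EcRi changes, and 125 to 243 and 296 to 591 for the interactions. The lowest counts of the EcRi effect at 0 h (684), the control change from -4 to 0 h (270) and the interaction from -4 to 0 h (125) came without control 0 h replicate 1, and that of the EcRi effect at 4 h (1116) without control 4 h replicate 1. The highest of the control change from -4 to 0 h (731), the EcRi change from 0 to 4 h (459) and the interaction from 0 to 4 h (591) came without EcRi 0 h replicate 1, and that of the EcRi effect at 0 h (1740) without EcRi 0 h replicate 3.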

Other observations

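A further probe set is annotated to both Eip63E and CG10038 and was left out of the 4. Its mean intensity was 416.4 ± 66.5 at -4 h, 470.7 ± 9.63 at 0 h and 441.7 ± 11.9 at 4 h in control animals, and 417.8 ± 22.8, 365.3 ± 117 and 329.2 ± 34.5 in EcRi animals (SD, n = 3). All 3 EcRi arrays lay below the control arrays at 0 h (232.2 to 448.7 against 461.5 to 480.7) and at 4 h (307.5 to 368.9 against 430.7 to 454.4). Strains did not overlap for 34.4% of all probe sets at 0 h and for 47.3% at 4 h. At 0 h the value of 232.2 was EcRi replicate 1, which stood apart over all probe sets, and replicates 2 and 3 read 448.7 and 414.9. No test result is given for this probe set.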
